A study of Homo sapiens with 2 samples.

Results

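The immediate-early response genes described here are FOS, FOSL1, JUN, JUNB, JUND, EGR1, IER2, IER3, ATF3 and MYC, 10 genes chosen by name. They were examined through the cytosines of their own mRNA in RNA bisulfite sequencing (RNA BS-Seq), in which bisulfite turns unmethylated cytosines into uracils and a cytosine still read as C counts as unconverted. A cytosine was kept when its coverage, the sum of unconverted and converted counts, was at least 10 and it lay on a same-strand exon of a basic transcript of GENCODE release 44 lifted to GRCh37. This rule used gene names and coverage, so coverage is given below as a description only. The genes were listed with earlier results of these data known, so their rates, calls and ranks against all genes are a description too. It kept 4376 of 1584002 cytosine sites in MCF10A, from 9 of the genes, and 4645 of 1271253 in MDA-MB-468, from all 10. Of the 812729 sites kept in both lines, 3681 belonged to these genes. At the threshold, the 184 member sites of MCF10A with a coverage of 10 had 15.9% of their counts unconverted and the 199 with a coverage of 9, left out, had 9.21%. In MDA-MB-468 the values were 4.07% over 118 sites and 4.92% over 149 sites.

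The cell lines were MCF10A, of mammary epithelium without cancer, and MDA-MB-468, of breast cancer. Each gave 1 library from poly(A)-selected RNA treated with sodium bisulfite at 60 degrees for 8 hours, with no replicates, no untreated control and no unmethylated spike-in analysed here. According to the methods, MCF10A was grown with horse serum, EGF, hydrocortisone and insulin and MDA-MB-468 with fetal bovine serum, while the labels name 1 medium for both, so line, medium and library cannot be told apart. The libraries held 76098976 and 90960018 counts in all, with a median coverage of 18 at kept nuclear sites in each, and 1.94% and 1.77% of nuclear counts were unconverted. Of 6 epithelial marker genes, 3 had a kept site in MCF10A (CDH1, EPCAM and KRT14 had none) and 5 in MDA-MB-468 (KRT14 had none). Of the markers of fibroblasts, immune cells and endothelium found in the annotation, DCN and CD68 had kept sites in MCF10A only, COL1A1 in MDA-MB-468 only, and COL1A2, PTPRC, CD3E and VWF in neither.

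Immediate-early genes are transcribed within minutes of a growth factor, serum or stress signal, without new protein synthesis, and their mRNAs are usually short-lived. FOS and FOSL1 encode proteins of the Fos family, which pair with the Jun proteins JUN, JUNB and JUND to form the transcription factor AP-1. EGR1 encodes a zinc finger transcription factor, MYC a transcription factor of growth and proliferation, and ATF3 a stress-induced relative of the AP-1 proteins. IER2 and IER3 encode small proteins induced early in the same response, and IER3 is known for a role in cell survival. In RNA, 5-methylcytosine (m5C) is placed by enzymes such as NSUN2, and a cytosine in a base-paired stretch can also escape bisulfite.

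The members carried more m5C sites in MCF10A than in MDA-MB-468, and FOS and IER3 held more than any other member in MCF10A. A site was called m5C when its unconverted share exceeded that of the library in a one-sided Fisher's exact test, with a false discovery rate below 0.05 over all kept sites. In MCF10A 289 member sites were called, 6.60% of those kept, against 0.960% of all kept sites. In MDA-MB-468 103 were called, 2.22%, against 0.840% of all kept sites. The nonconversion rate, the share of counts that stayed unconverted, was 3.57% (95% Wilson interval 3.49 to 3.65) over the members in MCF10A versus 1.83% (1.79 to 1.87) in MDA-MB-468. Without FOS and IER3, 139 sites and a rate of 2.85% were left in MCF10A and 94 sites and 1.87% in the MDA-MB-468 library. In MDA-MB-468 JUND alone held 41 of the 103 sites. Intervals cover counting error only and are too narrow, since 1 read gives counts at several cytosines and the libraries have no replicates. At least 1 m5C site was called in 7 of the 9 measured members in MCF10A, where 21.1% of all protein-coding genes with a kept site had 1, and in 8 of 10 in MDA-MB-468, where 16.9% had 1. These shares are not a like baseline, since more kept sites give more chances of a call. The measured members had 258 to 793 kept sites in MCF10A and 33 to 689 in MDA-MB-468. Of the genes with a kept site, 4426 of 8858 and 3579 of 8089 had at least 100.

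**Figure D1:**
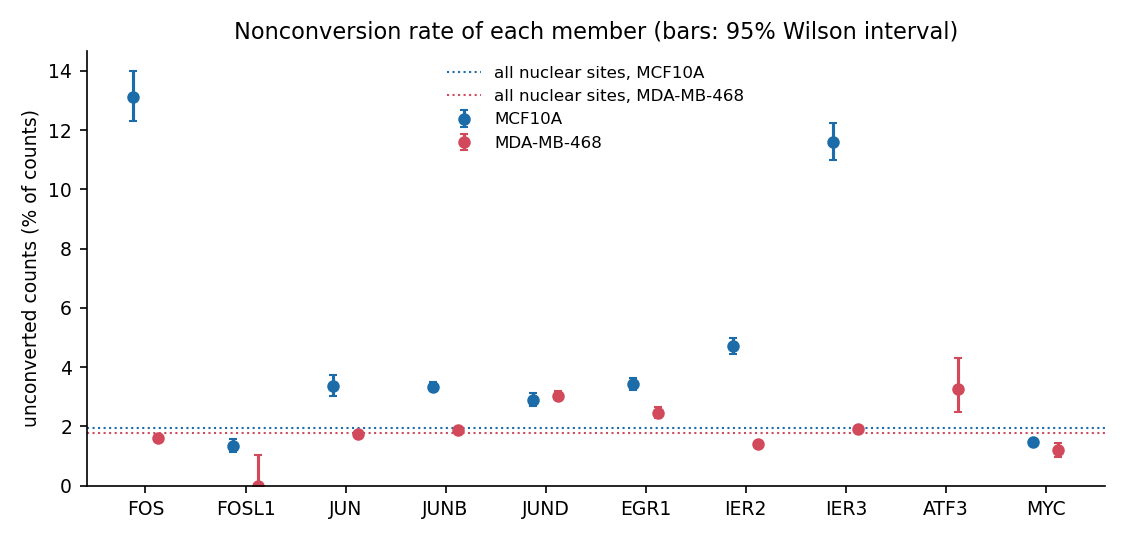
Nonconversion rate of each member in percent of counts (vertical axis), by gene (horizontal axis), in MCF10A (blue) and MDA-MB-468 (red). Points are the rate over all kept sites of 1 library, bars are 95% Wilson intervals for counting error, and dotted lines are the rates over all nuclear sites, 1.94% and 1.77%. FOS and IER3 stand at 13.1% and 11.6% in MCF10A and at 1.62% and 1.90% in MDA-MB-468, and ATF3 has no MCF10A point.

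In the Fos family, the mRNA of FOS had the highest nonconversion rate of the members in MCF10A and a rate below the nuclear rate in MDA-MB-468. In MCF10A 817 of 6229 counts over 349 sites were unconverted, 13.1% (12.3 to 14), and 63 sites were called. In MDA-MB-468 1350 of 83495 counts over 666 sites were unconverted, 1.62% (1.53 to 1.70), and 5 sites were called. The MCF10A rate was high across the kept sites rather than at the called sites alone. Of the 349 sites, 319 had at least 1 unconverted count, and the sites that were not called still had 9.76% unconverted. The kept sites were 45.7% of the exonic cytosines of FOS in MCF10A and 87.2% in MDA-MB-468. By region the MCF10A rate was 15% over 18 sites of the 5′UTR, 13.4% over 277 of the CDS and 11.5% over 54 of the 3′UTR. Among the 4426 protein-coding genes with at least 100 kept sites, FOS stood above 99.8% in MCF10A, and among the 3579 in MDA-MB-468 above 58.3%.

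FOSL1, the Fos-family member with the lowest rate, had no m5C site in either line. In MCF10A 136 of 10137 counts were unconverted, 1.34% (1.14 to 1.58), over 258 sites. In MDA-MB-468 0 of 365 counts over 33 sites were unconverted, with a Wilson interval up to 1.04%, at a coverage of 10 to 12. At sites kept in both lines, FOSL1 and MYC were the members with more converted counts per site in MCF10A.

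The called sites of FOS in MCF10A lay side by side, in stretches of m5C sites each within 10 nt of the next. Such stretches held 59 of its 63 sites, and the longest covered nt 1171 to 1227 of the MANE Select transcript, in the CDS, with 24 of its 26 kept sites called. Over these 26 sites the methylation ratio, the unconverted share of a site's counts, ran from 11.1% through a median of 28.6% to 40.0%, on 3 to 7 unconverted counts of a coverage of 13 to 27. At the same 26 cytosines MDA-MB-468 had ratios from 0.6% to 4.6%, on 1 to 10 unconverted counts of a coverage of 77 to 230, and no call. Per site this was 5.54 unconverted and 15.1 converted counts in MCF10A, and 3.19 and 148 in MDA-MB-468, so the libraries differed more in converted than in unconverted counts. The 3 cytosines of FOS with the highest coverage in MCF10A among m5C sites with a ratio of at least 0.2 lay in this stretch, and the window around the first of them, chr14:75748005-75748033 on the plus strand, is shown to display how nearly every cytosine was called. Capitals mark the m5C sites of MCF10A.
FOS CDS, MCF10A: ttCgtCttCaCCtaCCCCgaggCtgaCtC
The middle cytosine, chr14:75748019, nt 1190, had 6 unconverted counts of 24 in MCF10A, 25%, while MDA-MB-468 had 3 of 147, 2.04%. In MDA-MB-468 the longest FOS stretch was another, nt 1812 to 1819 of the 3′UTR, where each of 3 cytosines had 6 unconverted counts of 10. MCF10A had no kept site there, and at the first of them, chr14:75748641, 6 of its 6 counts were unconverted.

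IER3 resembled FOS. In MCF10A 1177 of 10142 counts over 304 sites were unconverted, 11.6% (11.0 to 12.2), and 87 sites were called, the most of any member. In MDA-MB-468 993 of 52274 counts over 372 sites were unconverted, 1.90% (1.79 to 2.02), and 4 sites were called. IER3 stood above 99.8% of the genes with at least 100 kept sites in MCF10A and above 72.8% in MDA-MB-468. The rate in MCF10A was 16.8% in the CDS and 7.92% in the 3′UTR, and sites that were not called had 7.27% unconverted.

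The 87 sites of IER3 fell mostly into 2 long stretches at the ends of its coding sequence. The first ran from nt 28, at the end of the 5′UTR, to nt 108, and all 41 kept sites in it were called in MCF10A. Their ratios ran from 25% through a median of 36% to 55%, on 4 to 13 unconverted counts of a coverage of 11 to 25. In MDA-MB-468 the same 41 sites had ratios of 0.8% to 7.9%, on 1 to 10 unconverted counts of a coverage of 31 to 131, and 4 of them were called. Per site this was 7.49 unconverted and 11.8 converted counts in MCF10A versus 4.61 and 93.1 in MDA-MB-468. The second stretch, nt 445 to 519, crossed from the CDS into the 3′UTR with 33 of 34 kept sites called, at a median ratio of 30.8% in MCF10A and 5.4% in the MDA-MB-468 library. The window below, from the first stretch at chr6:30712239-30712267 on the minus strand, surrounds the m5C site of highest coverage in it, chr6:30712253 at nt 72, with 9 unconverted counts of 25 in MCF10A versus 5 of 109 in MDA-MB-468. Capitals mark the m5C sites of MCF10A, which here are all of its cytosines.
IER3 CDS, MCF10A: CCatgaCCatCCtgCaggCCCCgaCCCCg

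IER2 had its MCF10A sites in the 3′UTR. In MCF10A 1051 of 22352 counts over 561 sites were unconverted, 4.70% (4.43 to 4.99), and 44 of the 48 m5C sites lay in the 3′UTR, where the rate was 8.22% against 3.21% in the CDS. In MDA-MB-468 1904 of 133876 counts over 606 sites were unconverted, 1.42% (1.36 to 1.49), with 10 m5C sites. Each of 7 cytosines between nt 1350 and 1365 had 4 unconverted counts of 19 in MCF10A, and in MDA-MB-468 they had 2 to 4 of 60 to 69. The longest stretch, nt 1455 to 1487 with 8 m5C sites, had ratios from 18.5% to 54.5% on 5 to 7 unconverted counts in MCF10A, and from 1.4% to 10.3% on 1 to 4 in MDA-MB-468. Its cytosine of highest coverage, chr19:13265070 at nt 1455, stands in the middle of the window chr19:13265056-13265084 on the plus strand, shown because it holds called cytosines of the 3′UTR, where most IER2 calls lay. Capitals mark the m5C sites of MCF10A.
IER2 3′UTR, MCF10A: gacttcattttgtaCtgtgggCtgtgCtg

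**Figure D2:**
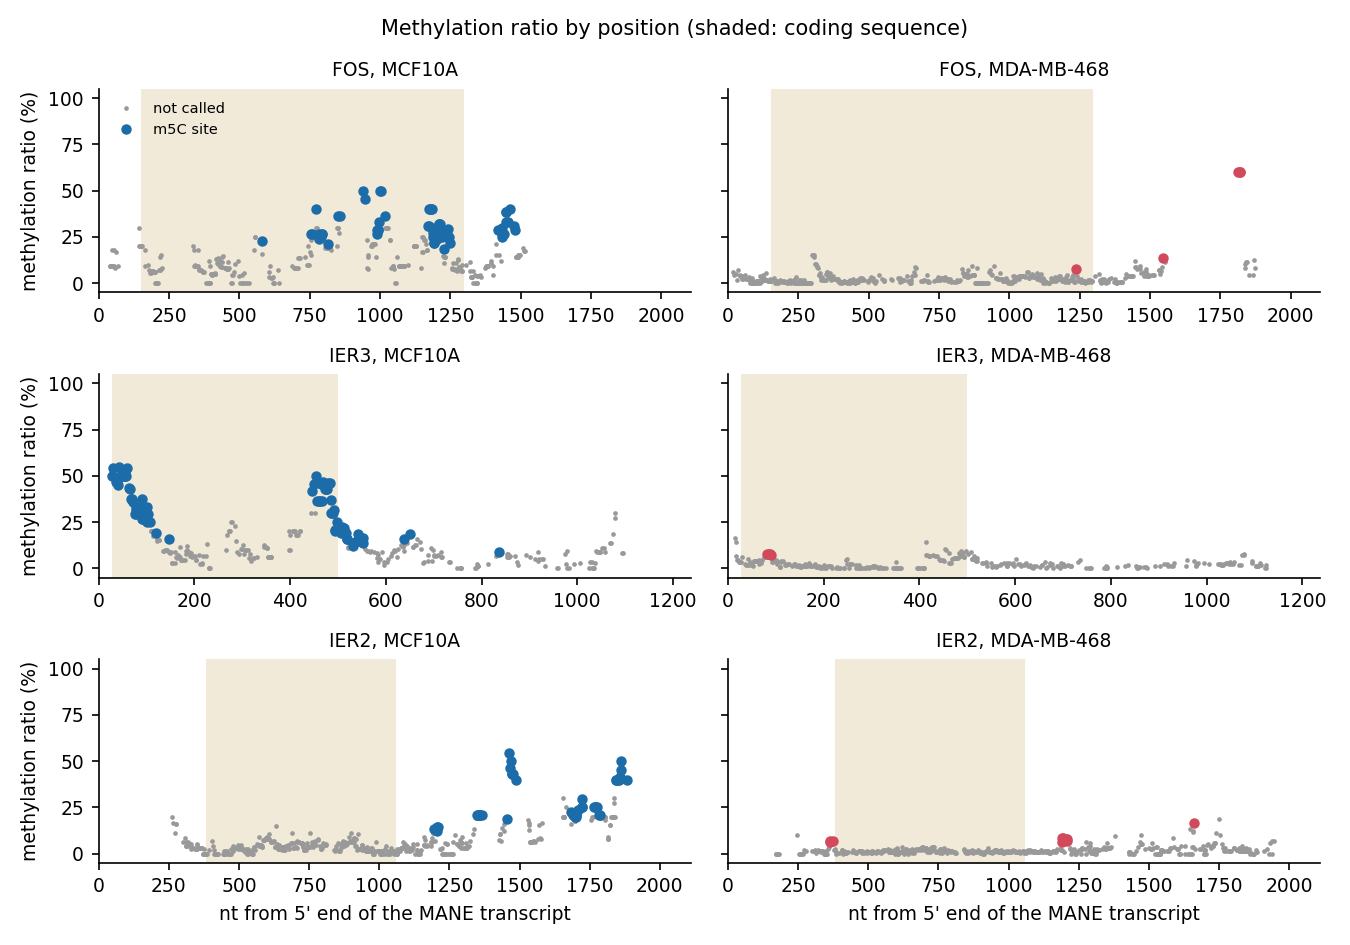
Methylation ratio in percent (vertical axes) of each kept cytosine against its distance in nt from the 5′ end of the MANE Select transcript (horizontal axes) for FOS, IER3 and IER2, in MCF10A (left) and MDA-MB-468 (right). Coloured points are m5C sites, grey points kept sites not called, and the shaded span is the CDS. In MCF10A many FOS and IER3 points lie well above 0 where sites were kept, with ratios up to 50% and 55%, and in MDA-MB-468 nearly all lie close to 0.

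The Jun genes and EGR1 showed another pattern, in which the same short stretches were called in both libraries. Of 69 member sites called in both lines, JUND held 30, EGR1 11, JUNB 10, JUN 9, IER2 4, IER3 4 and FOS 1. Runs of at least 3 such sites, each within 10 nt of the next, are shown as windows of 29 nt of GRCh37 in the direction of the mRNA. Capitals mark the cytosines called m5C in both lines. They were chosen for being called in both, so the calls in them are a description.
JUN 5′UTR, nt 680 to 690: tccgaggaaCCgCtgCgCaCgaagagcgc
JUN 5′UTR, nt 814 to 819: tggtgaggagggCgCagCggggacgacag
JUNB CDS, nt 779 to 799: ggggCCCCCggCtgggcCCgggggCgtct
JUND CDS, nt 254 to 261: gcccccgacggCCgCggCCggcagcatga
JUND CDS, nt 606 to 618: ggcgcgggCgCggCCgCtgCCgccgccgc
JUND CDS, nt 635 to 643: gccgccgccgCCggggggCcctcgggcac
JUND CDS, nt 692 to 705: ggccccggCggCggCCgCgCCCgaagcgc
JUND 3′UTR, nt 1407 to 1413: cgagcgcatgaCCCCCCCgccctcgcgct
EGR1 5′UTR, nt 34 to 53: gccgCCgCCgCCatccgCCgCCgCagcca
IER2 3′UTR, nt 1206 to 1208: ggctgctgagaggCCCggagagggactct
IER3 CDS, nt 82 to 90: caggccccgaCccCggCcCcctccaccat
The windows lie, in this order, at chr1:59249021-59249049 and chr1:59248890-59248918 on the minus strand, chr19:12903074-12903102 on the plus strand, chr19:18392162-18392190, chr19:18391807-18391835, chr19:18391780-18391808, chr19:18391721-18391749 and chr19:18391009-18391037 on the minus strand, chr5:137801197-137801225 and chr19:13264808-13264836 on the plus strand and chr6:30712225-30712253 on the minus strand. The 29 nt of genome around the 69 sites had a median G+C content of 82.8%, against 62.1% around the 207 sites called in MCF10A only and 69.0% around the 3384 called in neither line. Around the 21 called in MDA-MB-468 only it was 75.9%.

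JUN, the founding member of the Jun family, had all of its m5C sites in its long 5′UTR, 9 in MCF10A and 15 in the MDA-MB-468 library. Its rate was 3.37% (3.04 to 3.73) over 483 sites in MCF10A versus 1.75% (1.67 to 1.84) over 689 in MDA-MB-468. In the run at nt 680 to 690, the 6 cytosines had ratios of 21.7% to 35.0% in MCF10A, on 5 to 8 unconverted counts of a coverage of 18 to 24. In MDA-MB-468 they had 22.0% to 25.7%, on 31 to 35 unconverted counts of a coverage of 136 to 147. Unconverted and converted counts were thus both several times higher in MDA-MB-468, and the ratios overlapped. In the run at nt 814 to 819 the 3 ratios were 38.5% to 46.2% in MCF10A and 27.4% to 28.6% in the MDA-MB-468 library. MDA-MB-468 had 5 further m5C sites at nt 785 to 797, with ratios of 7.83% to 10% at a coverage of 90 to 118, where MCF10A had 1 unconverted count of 17 to 19 at each.

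JUNB, a Jun protein with weaker transactivation than JUN, held its strongest run in the CDS. The 9 cytosines at nt 779 to 799 had ratios from 17.9% through a median of 61.1% to 72.2% in MCF10A versus from 16.1% through 42.9% to 45.7% in MDA-MB-468, on 33 to 39 and 29 to 35 counts. Of these sites, chr19:12903080 had 26 unconverted counts of 36 in MCF10A and 15 of 35 in the MDA-MB-468 library. No site of this run differed between the libraries at the false discovery rate used below. The rate over JUNB was 3.34% (3.18 to 3.51) in MCF10A, with 27 m5C sites, and 1.88% (1.79 to 1.98) in MDA-MB-468, with 10. The calls found in MCF10A only included 10 in the 3′UTR, in stretches at nt 1438 to 1450 and nt 1485 to 1497, with 4 to 5 unconverted counts a site in MCF10A versus 0 to 2 in MDA-MB-468.

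JUND, a Jun gene known for steady expression in many cell types, was the only member whose rate was not lower in MDA-MB-468. The rate was 2.90% (2.70 to 3.12) over 466 sites in MCF10A and 3.03% (2.88 to 3.19) over 542 in the MDA-MB-468 library, among members measured in both. At the 465 sites kept in both lines it was 2.90% and 2.75%, with overlapping intervals. JUND had 33 and 41 m5C sites, of which 30 were the same, and stood above 93.6% of genes with at least 100 kept sites in MDA-MB-468. The ratios were the highest of the members. The 7 cytosines at nt 606 to 618 had a median ratio of 87.5%, with 38.9% the lowest and 100% the highest, on a coverage of 16 to 18 in MCF10A. In MDA-MB-468 their median was 68.6%, between 46.2% and 73.0%, on 35 to 39 counts. At nt 692 to 705 the medians over 8 cytosines were 85.0% and 68.6%, on 10 to 13 and 25 to 27 counts. In the 3′UTR the 7 adjacent cytosines at nt 1407 to 1413 had medians of 47.4% and 66.0%. A further stretch of 7 sites at nt 670 to 678 had a median of 76.5% in MDA-MB-468 and no kept site in MCF10A. Leaving out the m5C sites, the JUND rate was 1.58% in MCF10A versus 1.55% in MDA-MB-468. This removal lowers a rate by itself, and the nuclear rates include called sites, so the values are not comparable with them.

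EGR1 had 22 m5C sites in MCF10A and 17 in the MDA-MB-468 library, with rates of 3.42% (3.23 to 3.63) over 793 sites and 2.47% (2.30 to 2.65) over 656. Its shared run was the GCC repeat near the 5′ end of the mRNA, nt 34 to 53. The 11 cytosines there had ratios from 16.1% through a median of 21.1% to 26.7% in MCF10A, on a coverage of 26 to 38, and from 15.8% through 35.2% to 55.0% in MDA-MB-468, on 38 to 59. The ranges overlapped, with the higher median in MDA-MB-468. The stretch of 9 m5C sites at nt 2146 to 2170 of the 3′UTR, with ratios of 40.0% to 60.0% on 10 to 12 counts, was found in MCF10A and had no kept site in MDA-MB-468.

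**Figure D3:**
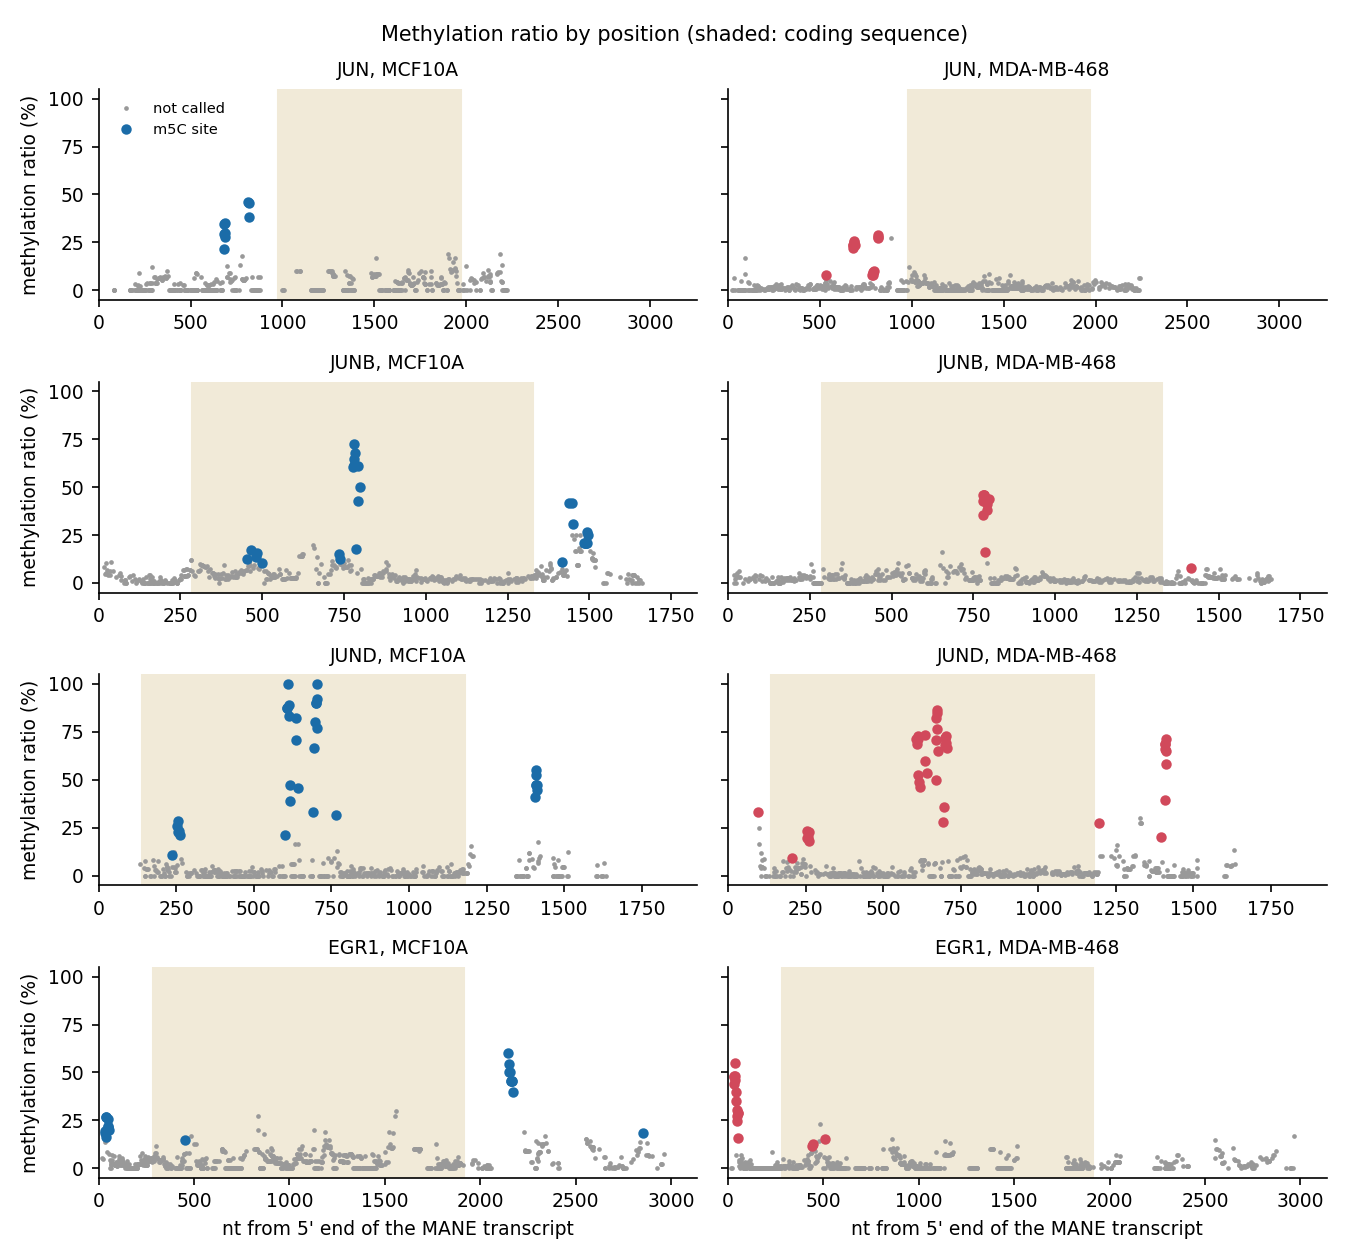
Methylation ratio in percent (vertical axes) of each kept cytosine against its distance in nt from the 5′ end of the MANE Select transcript (horizontal axes) for JUN, JUNB, JUND and EGR1, in MCF10A (left) and MDA-MB-468 (right). Coloured points are m5C sites, grey points kept sites not called, and the shaded span is the CDS. The main clusters stand at the same positions in both lines, as at nt 779 to 799 of JUNB and nt 606 to 705 of JUND, above a floor of sites close to 0.

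MYC and ATF3 carried almost no m5C site. In MCF10A MYC had 0 among 587 kept sites and a rate of 1.46% (1.37 to 1.57), at a median coverage of 75, the highest of the members. In MDA-MB-468 it had 1 among 400, with 4 unconverted counts of 19, at chr8:128750218 in a 5′UTR of a transcript other than the MANE Select one, which MCF10A did not cover by 5 counts. The rate there was 1.19% (0.974 to 1.45). ATF3 had no cytosine covered by 5 or more counts in MCF10A. In MDA-MB-468 its 102 kept sites, 16.7% of its exonic cytosines, had a median coverage of 13, with a rate of 3.27% (2.47 to 4.31) and no m5C site, where at a coverage of 10 a call needed 4 unconverted counts.

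At the sites kept in both lines, 3681 over all members, FOS, IER3, IER2 and JUN differed more in converted than in unconverted counts. FOS had 2.34 unconverted and 15.5 converted counts per site in MCF10A, and 2.90 and 185 in MDA-MB-468. The converted count was 12.0 times as high and the unconverted count 1.24 times. IER3 had 3.87 and 29.5 in MCF10A versus 3.14 and 162 in MDA-MB-468, ratios of 5.48 for converted and 0.811 for unconverted counts. For IER2 the ratios were 6.21 and 1.83, and for JUN 7.45 and 3.81. The ratios lay closer together in JUNB, 1.72 and 0.955, JUND, 1.86 and 1.76, and EGR1, 1.04 and 0.848. Over all nuclear sites kept in both lines they were 0.833 and 0.722. MYC went the other way, with ratios of 0.188 and 0.168. In these bulk libraries, fewer cells with a transcript and less of it per cell cannot be told apart, and a count per site describes coverage and was not tested as expression.

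**Figure D4:**
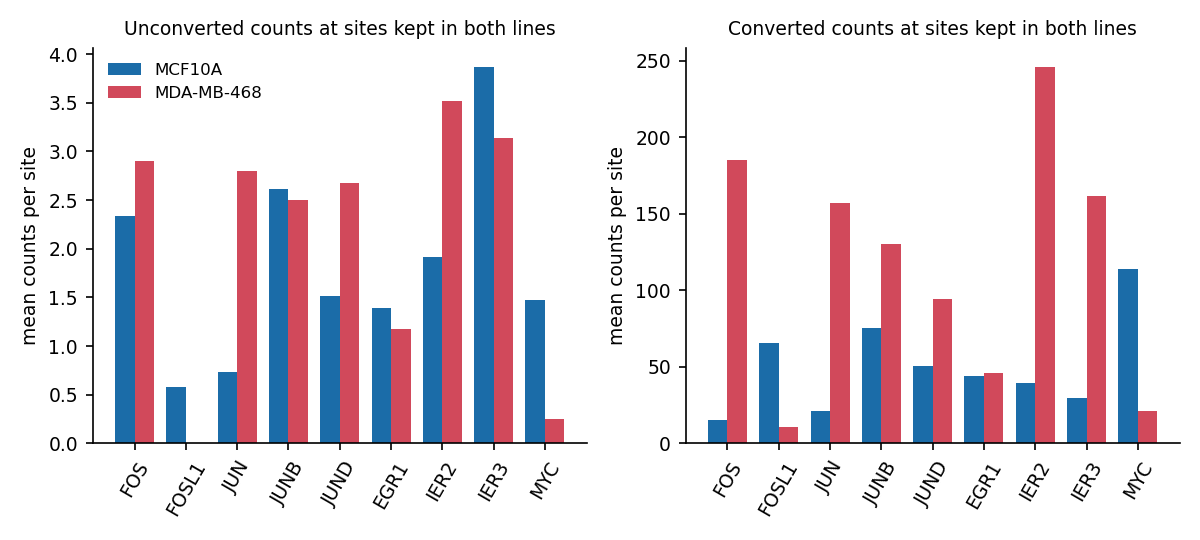
Mean unconverted (left) and converted (right) counts per site (vertical axes) by member (horizontal axes) at the sites kept in both lines, in MCF10A (blue) and MDA-MB-468 (red), 1 library each, with no error bar. FOS rises from 15.5 to 185 converted counts per site while its unconverted counts are 2.34 and 2.90.

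The called sites divided the same way by their unconverted counts. The 69 sites called in both lines had a median of 8 unconverted counts in MCF10A and 18 in the MDA-MB-468 library, and medians of 38.5% and 37.9% for the ratio. The 207 called in MCF10A only included 83 of IER3, 62 of FOS, 40 of IER2 and 17 of JUNB. They had a median of 5 unconverted counts in MCF10A versus 2 in MDA-MB-468, against 14 and 69 converted counts. Their median ratio was 28.6% from MCF10A counts versus 3.11% from MDA-MB-468 counts. Among all nuclear sites kept in both lines, members included, 4023 were called in both and 4324 only in MCF10A. That excess was smaller than among the members. The 4023 had median ratios of 38.7% (MCF10A) and 35% (MDA-MB-468), and the 4324 had 22.5% and 5.88%. A lower MDA-MB-468 ratio at MCF10A-only calls follows from how this class is defined, in any set of genes. The nuclear sites called in MDA-MB-468 only had the reverse, 6.05% (MCF10A) and 21.7% (MDA-MB-468). Of the 207 member sites, 160 rested on 4 to 6 unconverted counts, 77.3%, against 19 of the 69. The calls were also uneven in coverage. In MCF10A 13.5% of the member sites with a coverage of 10 to 19 were called, against 0.684% of all kept sites in that range, and 0.471% of those with a coverage of at least 100, against 1.64%. In MDA-MB-468 the same shares were 1.16% against 0.554% and 1.52% against 1.68%. The part of coverage in the MCF10A calls was not tested.

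**Figure D5:**
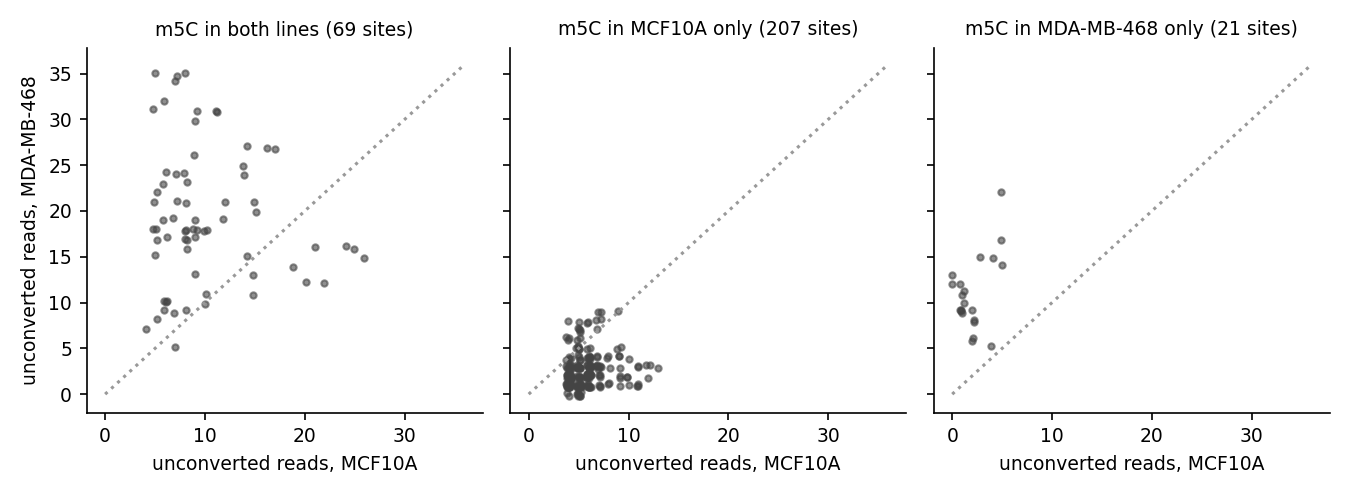
Unconverted counts in MDA-MB-468 (vertical axes) against MCF10A (horizontal axes) for member sites called m5C in both lines, in MCF10A only and in MDA-MB-468 only, with a random shift of up to 0.25 counts to separate points and a dotted line of equal counts. Sites called in both reach 26 counts in MCF10A and 35 in the MDA-MB-468 library, and those called in MCF10A only stay at or under 13 and 9.

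Differential sites were sought by Fisher's exact test, two-sided, on the counts of the 2 libraries, adjusted by Benjamini-Hochberg over all 812729 sites kept in both. This compares these libraries, not the cell lines as conditions. Of the 3681 member sites, 32 passed a false discovery rate of 0.05, and all were lower in MDA-MB-468. Over all sites 0.0691% were called lower in MDA-MB-468 and 0.0202% higher. IER3 held 16 of the 32, FOS 14 and IER2 2, and 29 lay in the CDS and 3 in the 3′UTR. Without sites of pairing probability over 0.5, IER3 kept 16, FOS 2 and IER2 0, and with a coverage minimum of 20 they kept 16, 12 and 0. The largest difference was at chr6:30712275, nt 50 of IER3, with 11 unconverted counts of 21 in MCF10A versus 1 of 62 in MDA-MB-468, 52.4% against 1.61% (adjusted p = 0.000441, Fisher's exact test). The next, chr6:30712266 at nt 59 of IER3, had 13 of 24 and 3 of 73 (adjusted p = 0.000394, Fisher's exact test). In FOS the largest was at chr14:75747830, nt 1001, with 5 of 10 against 0 of 75, and in IER2 at chr19:13265476, nt 1861, with 5 of 10 against 1 of 98. Of the 10 sites with the largest differences, 7 lay between nt 42 and 59 of IER3, at 50% to 55% in MCF10A and 1.35% to 5.17% in the MDA-MB-468 library. These neighbours lie close enough to share reads and are not separate evidence. Across the 32 sites, unconverted counts were 4 to 13 in MCF10A versus 0 to 4 in MDA-MB-468, and converted counts 5 to 52 and 48 to 444. Over all 3681 sites, the 32 included, 2376 had a lower ratio in MDA-MB-468, 923 a higher and 382 an equal one.

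By region, the members' rate in MCF10A was 2.74% in the 5′UTR, 3.21% in the CDS and 6.45% in the 3′UTR, where all mRNA with a MANE Select transcript had 2.87%, 1.81% and 2.06%. In MDA-MB-468 the members had 2.20%, 1.68% and 2.0% and all mRNA 2.83%, 1.63% and 1.71%. The 5′UTR held 26 of the 289 m5C sites in MCF10A, 9.0%, and 34 of the 103 in MDA-MB-468, 33.0%, where it held 17.8% and 22.1% of the members' kept sites. Over all mRNA with a MANE Select transcript, the 5′UTR held 27.0% of m5C sites and 8.69% of kept sites in MCF10A, and 22.3% and 6.89% in MDA-MB-468. Most of the members' 5′UTR m5C sites were those of JUN and EGR1, 20 of 26 in MCF10A and 29 of 34 in the MDA-MB-468 library. FOS and IER3, with the most calls in MCF10A, had only 18 and 2 kept sites in the 5′UTR there. In MDA-MB-468 they had 178 and 9, so the shares of the 2 lines rest on unlike coverage. In sequence context, 19.4% of the members' m5C sites in MCF10A versus 40.8% in MDA-MB-468 were followed by G, where 22.7% of their kept sites were in each line.

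Predicted RNA pairing was more frequent at the shared calls than at the kept sites, and most of the paired shared sites were in JUND. With maximum expected accuracy folding at 70 degrees, close to the structure filter of the methods, 34 of the 69 sites called in both lines were paired, 49.3%, and 20 of the 207 called in MCF10A only, 9.66%, while 11.3% of the members' kept sites were in MCF10A and 11.0% were in MDA-MB-468. Of the 21 sites called in MDA-MB-468 only, 5 were paired, 23.8%. JUND was paired at 24 of its 33 m5C sites in MCF10A and 31 of 41 in the MDA-MB-468 library. The JUNB run and the EGR1 run had no site paired in this folding, although 7 of the 9 JUNB sites had a pairing probability over 0.5 in local folding. Of the JUND sites, 33 and 40 had a pairing probability over 0.5 in local folding, so that without such sites JUND kept 0 calls in MCF10A and 1 call in MDA-MB-468, and JUN kept 2 in each. EGR1 kept 18 and 15, and IER3 69 and 3. Over all members this left 152 m5C sites in MCF10A versus 27 in MDA-MB-468. Sites with a probability over 0.5 were 52.8% and 53.8% of the members' kept sites, and 47.4% and 73.8% of their m5C sites. In JUND they were 59.0% and 61.4% of the kept sites. They were also 72.5% of the 69 shared sites, 39.6% of the 207 and 71.4% of the 21 called in MDA-MB-468 only. The part of structure in the calls was not tested beyond this.

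Reads on the opposite strand lay near the MCF10A calls more often over the pooled members, but not within most genes. Over the members' exons MCF10A had 225 cytosines of the opposite strand with a coverage of at least 5, at 1479 unconverted of 1551, 95.4%, against 40.8% over the opposite strand of all genes. FOS had 59 of them, with 340 of 346 counts unconverted, IER3 99 with 801 of 820, IER2 27, JUND 30 and JUN 10, while JUNB, EGR1, FOSL1 and MYC had none. MDA-MB-468 had 53, at 305 of 306 counts, in FOS, JUND and IER3, against 9.83% over all genes. The MCF10A m5C sites lay within 10 nt of such a cytosine in 47 of 289 cases, 16.3%, and the other kept sites in 4.70%. Within genes the order varied. In IER2 14.6% of the m5C sites and 5.46% of the others did. The order was reversed in FOS, 15.9% and 22.7%, IER3, 34.5% and 38.7%, and JUND, 0% and 3.46%. JUN had 0% of both, and the pooled shares include the members with no such cytosine. In MDA-MB-468 0 of 103 m5C sites did. The part of these reads in the calls was not tested.

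A list of 44 other genes of the same response, including FOSB, EGR2, EGR3, the NR4A and KLF genes, DUSP phosphatases and SRF, was read in the same way. In MCF10A 14 of the 35 with a kept site had an m5C site, 154 sites or 1.32% of those kept, and in MDA-MB-468 15 of 30, 155 sites or 1.57%. The median rate over the genes of the list with at least 100 kept sites was 1.63% in MCF10A and 1.57% in the MDA-MB-468 library, where the median over all such protein-coding genes was 1.83% and 1.49%. The highest rate among these genes of the list was that of IER5L, an immediate-early response gene related to IER2 by sequence, with 6.0% in MCF10A versus 4.80% in MDA-MB-468 and 44 and 52 m5C sites. FOSB, the Fos family gene closest to FOS, had 25 m5C sites in MDA-MB-468 and no kept site in MCF10A, and SRF, which drives many of these genes, had 1 in MCF10A and 8 in the MDA-MB-468 library.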

How the data were processed

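RNA BS-Seq of 2 cell lines was used, with 1 library each. According to the methods, the authors trimmed reads with Trim Galore, aligned them to hg19 with MeRanTK, called cytosines with a cap on duplicate reads and filtered exons and structure. The submitters' processing notes also name Bismark. For each cytosine the authors deposited counts of unconverted and converted reads, without normalization, from a coverage of 5 and with introns included. Coverage and exon filters were therefore applied anew here. No structure filter was applied before calling, and paired sites were left out only in the alternative runs, without calling again. All nuclear positions fell on a cytosine of GRCh37.

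Sites covered by 10 or more counts on same-strand exons of GENCODE release 44 basic transcripts, or on the mitochondrial chromosome, were kept. m5C calls used one-sided Fisher's exact tests against the summed counts of all kept sites, with Benjamini-Hochberg adjustment and a false discovery rate of 0.05. In each library a call needed 4 unconverted counts of 10, or 9 of 100. Differences used two-sided Fisher's exact tests. QNB, which the methods name, was not run. Regions followed the MANE Select transcript, or otherwise 5′UTR before CDS before 3′UTR. Structure was predicted with ViennaRNA 2.7.2 at 70 degrees (a pairing span of 150 nt, local windows of 300 nt, MEA gamma of 0.1). Python 3.11.15, scipy 1.17.1, pandas 2.3.3 and pysam 0.24.0 were used, and the tests were checked on simulated data. Named sites were up to 3 m5C sites per member and line with the highest coverage and a ratio of at least 0.2, the stretch with the most m5C sites, and the 10 largest differences. The runs called in both lines were added after seeing the values. The members and lists were chosen with earlier results of these data known.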

Additional observations from a re-analysis of the deposited data

Results flagged for a closer look

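Outside the kept exonic cytosines, unconverted counts exceeded the nonconversion rate of their library, judged by the lower end of a 95% Wilson interval, on the strand opposite to the exons of 5 members and in the introns of 2. Over the introns of all members the rate was 1.58% in MCF10A and 1.21% in the MDA-MB-468 library, below the library rates of 1.99% and 1.81%. On the opposite strand in MCF10A, 98.3% of 346 counts were unconverted over FOS, 97.7% of 820 over IER3, 99.4% of 162 over IER2, 100% of 59 over JUN and 72.0% of 164 over JUND. In MDA-MB-468 they were 100% of 116 over FOS, 100% of 97 over IER3 and 98.9% of 93 over JUND. In introns, 11.5% of 104 counts were unconverted over FOS in MCF10A (6.72 to 19.1) and 2.53% of 1463 over MYC in MDA-MB-468 (1.84 to 3.47).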

How the results depend on the processing

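Each line had 1 library, so no spread between replicates could be measured. No paired analysis was possible because the lines have 1 library each. The main results kept their direction under every alternative run, with all differential sites of the members lower in MDA-MB-468 in each. In MCF10A the 289 m5C sites became 154 with a coverage minimum of 20, 152 without sites of pairing probability over 0.5 and 139 without FOS and IER3. In MDA-MB-468 the 103 became 27 without sites of pairing probability over 0.5 and 57 without sites paired by maximum expected accuracy. The 32 differential sites became 157 with a chi-square test, 18 without sites of pairing probability over 0.5 and 2 without FOS and IER3. The MCF10A rate of 3.57% became 3.80% at a coverage minimum of 5, 2.95% at 20, 3.71% and 3.45% without sites paired by probability and by maximum expected accuracy, 2.85% without FOS and IER3 and 3.74% at sites kept in both lines. The MDA-MB-468 rate of 1.83% became 1.87% at a minimum of 5, 1.72% and 1.66% without the paired sites and 1.87% without FOS and IER3. The 5′UTR share of m5C sites in MDA-MB-468, 33.0%, became 59.3% and 43.9% without the paired sites. Leaving out FOS and IER3, and keeping only sites of both lines, were chosen after seeing the data. The cause of these changes was not tested beyond the fewer sites left in each.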
